A study of Mus musculus with 2 samples.

Results

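The Sfmbt2 intron array is a rodent-specific run of repeated microRNA hairpins on mouse chromosome 2, with genes named Mir297, Mir466, Mir467 and Mir669 and further hairpins known by Gm symbols. Its members were taken by position and not by their values: every gene of the count tables that lies on the plus strand and wholly within chr2:10467495-10518279 (mm10). This gave 114 genes of 2202, spanning 50.785 kb. By symbol, 46 were Gm-named, 28 were miR-669, 21 miR-466, 14 miR-467 and 5 miR-297 genes. Reads were counted in 2 microRNA-seq libraries, which sequence small RNA, of tissue labelled as a hippocampal layer from adult male mice aged 8 to 10 months. Both libraries carry the strain label 5xFAD/CAST. The 5xFAD line is a transgenic model of Alzheimer disease whose transgenes are driven by the neuronal Thy1 promoter, and CAST is a wild-derived strain. There was 1 group and no control, so no effect of genotype was tested. Both libraries are labelled as biological replicates yet share 1 donor record, so p-values speak only of these 2 samples, whose difference may be technical.

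A microRNA is cut from a hairpin in a longer transcript and guides the silencing machinery to messenger RNAs that pair with its seed, bases 2 to 8. Sfmbt2 encodes a Polycomb-type protein and is known as an imprinted gene of the mouse, expressed from the paternal chromosome in early embryos and placenta. The array in its intron is known above all for its role in placental growth. In GENCODE M21 the Sfmbt2 gene covers chr2:10370510-10595253 on the plus strand. All 114 hairpins fell in 1 intron of 62.472 kb, which is intron 10 of transcript Sfmbt2-201 and intron 11 of Sfmbt2-205.

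Genes of the same families lie outside the array as well. Of 13 such genes, 3 sit in the same intron just before the interval and 10 on other chromosomes. RefSeq sequences (GRCm38.p6) were matched by symbol for 0 of the 114 array genes and for 8 of the 13 relatives. Those of 5 relatives on other chromosomes are shown, because they let a reader see the simple alternating letters of these families. Capitals mark the seed.
mmu-miR-467f: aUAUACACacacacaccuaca
mmu-miR-467h: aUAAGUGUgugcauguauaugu
mmu-miR-466i-3p: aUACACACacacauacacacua
mmu-miR-466q: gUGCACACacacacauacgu
mmu-miR-669n: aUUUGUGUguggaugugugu
In GRCm38.p6 these lie at chr11:69635419-69635439 on the minus strand and, on the plus strand, at chr9:115381898-115381919, chr13:17747552-17747573, chr3:28419988-28420007 and chr3:115979905-115979924, in the order shown. No seed was shared among the 8 matched mature sequences. Most are runs of UG or AC with few interruptions. Mir466q, on chromosome 3, had 3 reads in replicate 1 and 1 in replicate 2, and the other 9 genes on other chromosomes had 0 reads in both libraries.

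The same kind of repeat stood in many of the array hairpins. The 114 hairpins were 73 to 127 bases long, with a median GC content of 37.2% against 50.8% over all 2202 genes. The motif TGTGTGTG, searched on the strand of the hairpin only, stood in 47 of the 114 array hairpins (41.2%) and in 8.72% of all hairpins. The motif ACACACAC, searched in the same way, stood in 51 array hairpins (44.7%) and in 7.77% of all. Families differed in which they held. TGTGTGTG was present in 20 of 21 miR-466 hairpins and in 0 of 14 miR-467 hairpins, while ACACACAC was present in all 14 miR-467 hairpins and in 4 of the 21 miR-466 hairpins. Neither motif was found in the 5 miR-297 hairpins. Of the 46 Gm-named hairpins, 7 held TGTGTGTG and 14 held ACACACAC. Of the 28 miR-669 hairpins, 20 held TGTGTGTG and 19 held ACACACAC.

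Many of the hairpins were exact copies of each other. The 114 genes held 83 distinct sequences, and 47 genes were identical to at least 1 other array gene. The largest group had 9 members, Mir669a-4 to Mir669a-12. The next had 7, made up of Mir467a-2, Mir467a-4, Mir467a-5, Mir467a-7, Mir467a-8, Mir467a-9 and Gm25022. Of the 46 Gm-named hairpins, 4 were identical to a named array gene: Gm25022, Gm25943, Gm25285 and Gm26092. By closest match among the named array genes, 42 of the 46 resembled a miR-669 gene. Their identity in a global alignment was 68.8% to 100%, with a median of 95.6%. The low end does not tell families apart, since Mir669l and Mir467e shared 73.5%.

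Reads were assigned to a small part of the array. A gene was called detected when each library gave it 10 reads or more, and the detected array genes were Mir467d, Mir669c, Mir467e, Mir669o, Mir669l, Mir467c, Mir669h and Mir669e. These 8 were 7.02% of the 114 array genes, beside 17.7% of all genes of the tables by the same rule. A further 7 array genes had 1 to 10 reads in all, and 99 had none. At least 1 read in either library was found for 15 array genes (13.2%), against 34.3% of all genes. The array held 4777 of 3421977 assigned reads in replicate 1 (0.140%, Clopper-Pearson exact 95% interval 0.136 to 0.144) and 3122 of 2820468 in replicate 2 (0.111%, 0.107 to 0.115). The mean was 0.125% ± 0.020 (SD, n = 2). The 2 intervals did not overlap, and they cover counting error only, since reads carry no molecular identifiers. No read lay on the opposite strand of any array gene in either library.

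Read counts fell into 2 blocks at the ends of the array, with a long stretch between them that held almost none. The first block, the 6.533 kb from Mir669e to Mir467c, had 12 genes, 3 of them detected, and took 5.30% of array reads in replicate 1 and 3.72% in replicate 2. The last block, the 12.559 kb from Mir467e to Mir669h, had 30 genes, 5 of them detected, and took 94.7% and 96.2%. Between them lay 31.693 kb with 72 genes and 5 reads in both libraries together. These blocks were set after the values were seen, as the longest stretch without a detected gene, so they describe these libraries and are not a test. The interval starts at Mir669e and ends at Mir669h, both detected, so detected genes at both ends follow from its limits.

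**Figure D1:**
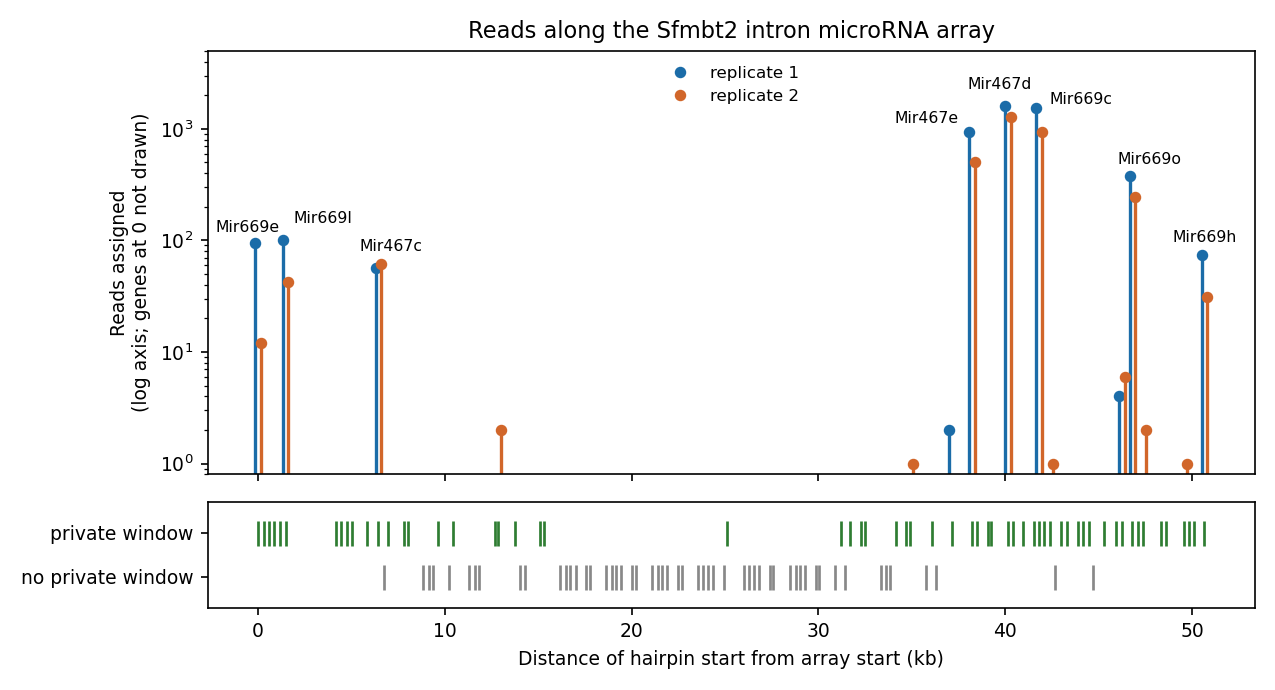
Reads assigned to each array gene (log axis, genes at 0 not drawn) against the distance of its hairpin from the start of the array in kb, for replicate 1 (blue) and replicate 2 (orange). The lower strip marks each of the 114 genes by whether its hairpin holds a private 20-base window. Reads stand at both ends, while the 72 genes between Mir467c and Mir467e had 5 reads together.

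The empty stretch was also the most repetitive. It held 12 genes that were miR-467 by symbol or closest match, whose starts were 2.413 to 2.470 kb apart, with a median of 2.451 kb. A 20-base window of a hairpin was called private when no microRNA gene at another place held it on either strand. In the stretch 52 of 72 genes had no private window, against 2 of the 42 genes outside it. Over the whole array 54 genes (47.4%) had none, against 247 of the 2088 other genes (11.8%). All 54 had 0 reads in both libraries. Among the 247 genes elsewhere, 3 had a read and 2 were detected. Reads that fit several places, which the tables give as a total with no gene name, were 41.6% of all reads in replicate 1 and 38.2% in replicate 2. That is 845 and 1046 such reads for each read assigned to the array. The total covers the whole library, and the array's part in it is not known. A gene without private sequence, such as any of the 9 identical Mir669a copies, can therefore not be called silent from a count of 0.

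Most genes with private sequence had no reads either. Of the 60 array genes with a private window, 8 were detected and 45 had no read, so 13.3% were detected, beside 379 of 1841 other genes with a private window (20.6%). Detected genes came from a wide range. Of 25 array genes with 20 to 39 private windows, 3 were detected, of 8 with 40 to 59, 2 were, and of 17 with 60 to 95, 3 were. The 10 genes with 1 to 19 had 1 read among them, at Mir297a-4. Gm26073 (89 private windows of 108), Mir466l (87 of 102), Gm22239 (84 of 84) and Mir669i (79 of 108) had 0 reads in both libraries. In reads from its private sequence, a count of 0 at such a gene allows up to 0.877 CPM in replicate 1 and 1.06 CPM in replicate 2 (3 reads), where CPM is the count scaled to 1000000 assigned reads. No search was made beyond annotated microRNA genes, so a private window is not known to be unique in the genome. The windows come from the reference sequence, which was not compared with CAST sequence. Private status and the CPM limit above therefore hold for these mice only where their hairpins match the reference.

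**Figure D2:**
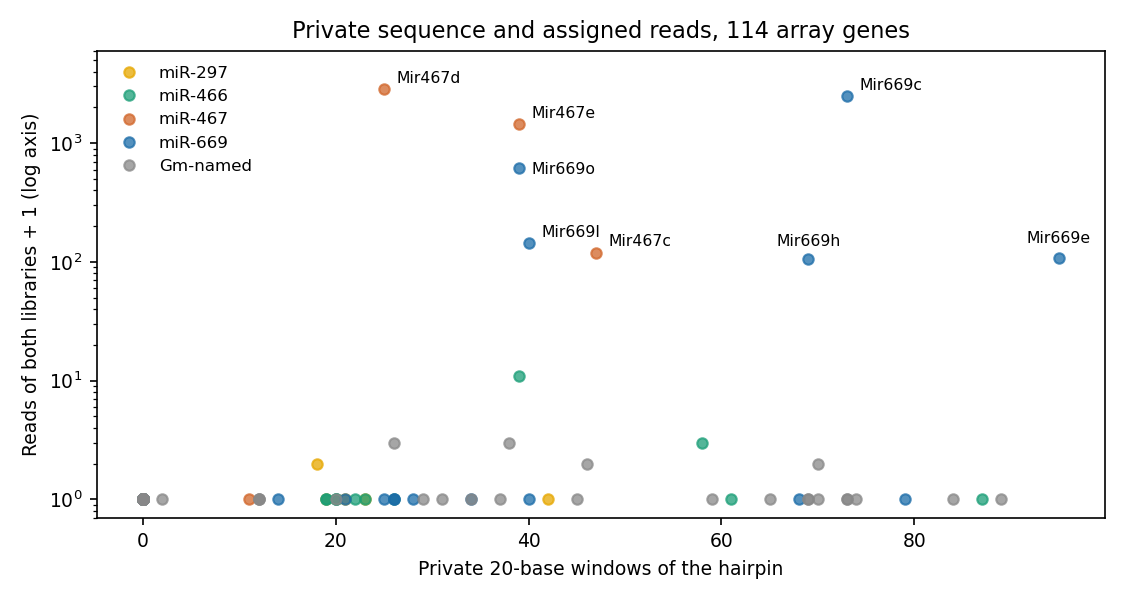
Reads of both libraries plus 1 (log axis) against the number of private 20-base windows, for the 114 array genes coloured by family. Every gene at 0 windows has 0 reads, and the 8 named genes lie between 25 and 95 windows, among many genes with 0 reads.

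Nearly all assigned array reads came from the miR-467 and miR-669 families. The 14 miR-467 genes, 12.3% of the array, had 3 detected genes. They took 54.3% of its reads in replicate 1, with an exact 95% interval of 52.9 to 55.7, and 58.8% in replicate 2, with an interval of 57.1 to 60.5. The 28 miR-669 genes took 45.6% (44.2 to 47.0) and 40.8% (39.04 to 42.5), through 5 detected genes. The order of these 2 families was the same in both libraries. The 21 miR-466 genes had 4 and 8 reads, of which Mir466n held 4 and 6 and Mir466h the other 2 in replicate 2. The 46 Gm-named genes had 2 and 4 reads, with at most 2 at any gene (Gm25451 and Gm26398). The 5 miR-297 genes had 1 read, at Mir297a-4 in replicate 2. All 5 miR-297 genes and 12 of the 21 miR-466 genes had a private window. The same held for 4 of the 14 miR-467, 15 of the 28 miR-669 and 24 of the 46 Gm-named genes. Reads from shared sequence may not have been assigned, so the family shares describe assigned reads only.

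**Figure D3:**
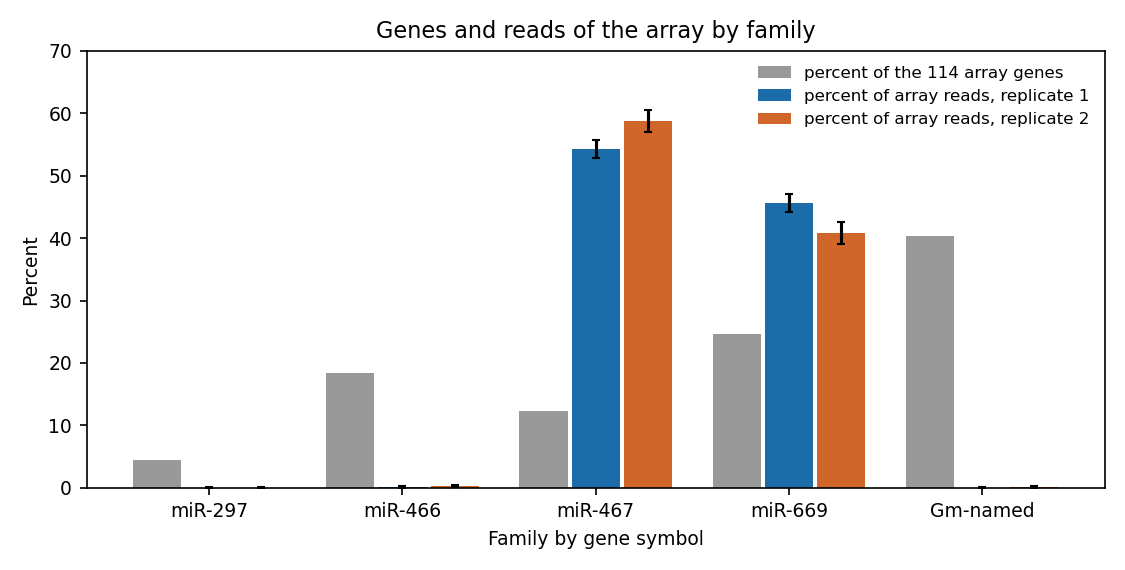
Percent of the 114 array genes (grey) and percent of array reads in replicate 1 (blue) and replicate 2 (orange) by family, with exact 95% intervals from the counts. miR-467 and miR-669 hold nearly all assigned reads, with miR-467 the higher in both libraries, and the Gm-named hairpins, 40.4% of genes, hold almost none.

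Assigned counts at hairpins next to each other differed widely. Mir467d, with 1596 and 1270 reads, is followed after 203 bases by Mir466, which had 0 reads in both libraries with 20 private windows of 54. Mir467e, with 940 and 504 reads, is followed after 198 bases by Mir466p, which had 0 and 0 with 26 private windows of 70. Mir669o, with 377 and 245 reads, is followed after 199 bases by Mir466g, all of whose 61 windows were private, with 0 and 0 reads. On both sides of Mir669c lay hairpins with 0 reads, Mir297c 182 bases before it and Gm24342 179 bases after it. All these neighbours had private sequence, but most windows of Mir466, Mir466p and Mir297c (19 private of 79) were shared. Reads from shared parts may not have been assigned, so a count of 0 at these genes sets no limit on their level. Gm24342 had 65 private windows of 85. On the upstream side, Mir466n before Mir669o had 4 and 6 reads and Gm26398 before Mir467e had 2 and 0. Gm22678, before Mir467d, had 0 and 0.

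Most assigned array reads came from few genes. Mir467d, Mir669c, Mir467e and Mir669o led in that order in both libraries, and these 4 were enough for 90% of the array's reads in each. With Mir669l, the next by mean CPM, they took 95.1% of array reads in replicate 1 and 96.2% in replicate 2.

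Mir467d (ENSMUSG00000077021.2, chr2:10507630-10507714) was the highest, at 466 and 450 CPM in replicates 1 and 2, a mean of 458 ± 11.4 CPM (SD, n = 2). It ranked 129 of all genes by mean CPM, and took 33.4% of array reads in replicate 1 and 40.7% in replicate 2. Mir669c (ENSMUSG00000076118.1, chr2:10509296-10509404) followed with 447 and 334 CPM, a mean of 391 ± 79.9, and ranked 135. The order of these 2 was the same in both libraries, and their gap was wider in replicate 2. Mir467e (ENSMUSG00000076948.2, chr2:10505721-10505807) had 275 and 179 CPM, a mean of 227 ± 67.9. Its hairpin was the closest to that of Mir467d, with 92.0% identity in a global alignment. Mir467d kept 25 private windows of 66 and Mir467e 39 of 68, so each hairpin holds stretches of its own beside stretches that other microRNA genes share.

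Mir669o (ENSMUSG00000077086.1, chr2:10514300-10514395) had 110 and 86.9 CPM, a mean of 98.5 ± 16.5. The 4 other detected genes had at most 29.5 CPM in either library. By mean CPM, Mir669o and these 4 were below the median of 105 CPM over all 389 detected genes, and the 3 genes described before them were above it. Mir669l (ENSMUSG00000076959.1, chr2:10468971-10469068) had 29.5 and 14.9 CPM, and Mir467c (ENSMUSG00000077049.2, chr2:10473931-10474027) had 16.7 and 21.98. Mir669h (ENSMUSG00000080594.1, chr2:10518155-10518279), the last hairpin of the array, had 21.6 and 11.0 CPM. Mir669e (ENSMUSG00000080653.1, chr2:10467495-10467613), the first, had 27.8 and 4.25 CPM. The order of these 4 was not the same in the 2 libraries. Mir467c was the lowest of them in replicate 1 and the highest in replicate 2, while Mir669e was the lowest in replicate 2 and next to Mir669l in replicate 1. Mature microRNAs known by these names come from both arms of the hairpins, and counts per hairpin do not separate the arms.

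**Figure D4:**
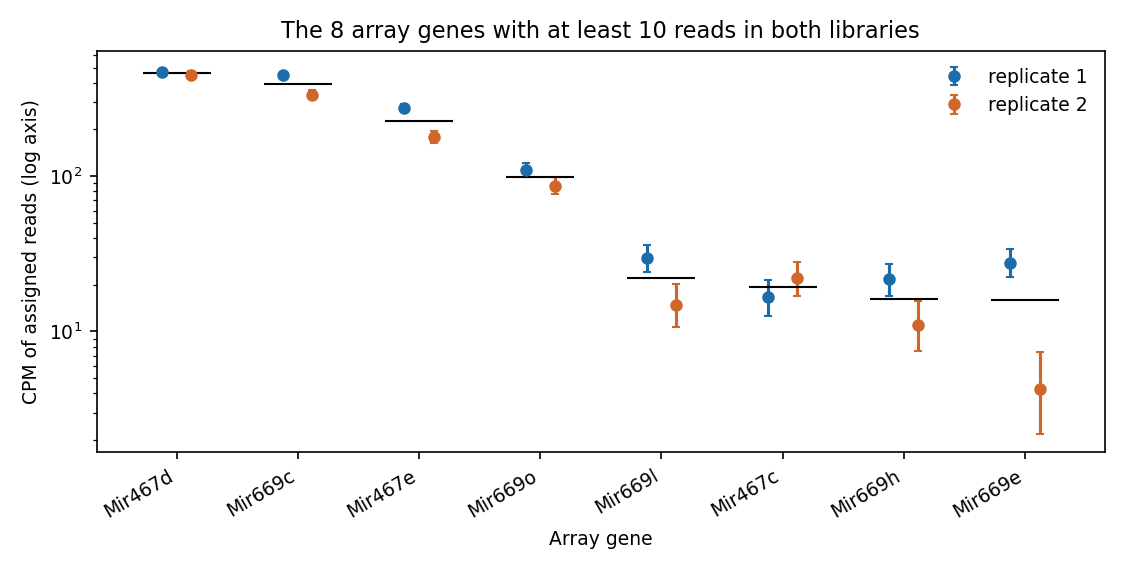
CPM of assigned reads (log axis) of the 8 detected array genes in replicate 1 (blue) and replicate 2 (orange), with exact 95% counting intervals and the mean as a line. Mir467d, Mir669c, Mir467e and Mir669o keep their order in both libraries, and Mir669e is the furthest apart, at 27.8 and 4.25 CPM.

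The libraries differed at most of the detected array genes, mostly in 1 direction. The test was a two-sided exact binomial test per gene, on library sizes scaled by TMM, a method that takes most genes as equal between libraries, with Benjamini-Hochberg adjustment over all 389 detected genes. This test asks whether these 2 libraries differ beyond counting error, and the labels give them no difference in condition. Of the 8 array genes 7 were called at an adjusted p of at most 0.05, all lower in replicate 2. Over all detected genes 67.6% were called, 33.7% lower and 33.9% higher in replicate 2. Calls were thus common among all genes, and the array genes lie in 1 intron and share sequence, so they are not independent of each other. The median log2 ratio of replicate 2 over replicate 1 was -0.62 for the 8 array genes, against 0.053 for all 389. For the summed array reads it was -0.43.

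Mir669e was the furthest apart. On the TMM scale it stood at 28.7 CPM in replicate 1 and 4.11 CPM in replicate 2, which is 6.99-fold lower in replicate 2 (log2 ratio -2.80, exact 95% interval -3.81 to -1.93; adjusted p = 1.1e-14 by the exact binomial test). Only 3 detected genes of all 389 had a lower ratio, and it rests on 95 and 12 reads. Mir669l and Mir669h had log2 ratios of -1.09 (-1.64 to -0.55) and -1.08 (-1.73 to -0.45). Thus 3 of the 8 array genes differed at least 2-fold, beside 22.6% of all detected genes. Among the called genes, the more abundant ones differed less than Mir669e, Mir669l and Mir669h. Mir467c, of an abundance like that of these 3, was not called. Mir467e had a log2 ratio of -0.72 (-0.88 to -0.56), Mir669c -0.52 (-0.64 to -0.40) and Mir669o -0.44 (-0.68 to -0.21).

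Mir467d had a log2 ratio of -0.15 (-0.26 to -0.042; adjusted p = 0.0097 by the exact binomial test), a call that was lost with assigned-read totals in place of TMM (adjusted p = 0.42). Mir467c, at 57 and 62 reads, was the exception in direction, with a ratio of 0.30 whose interval included 0 (-0.24 to 0.85; adjusted p = 0.33 by the exact binomial test). Of the 3 detected miR-467 genes 2 were thus lower in replicate 2, as were all 5 of miR-669. With the spread of the 2 libraries as the error (edgeR exact test), 0 of the 8 genes passed, with adjusted p from 0.30 for Mir669e to 1. The unadjusted p of that test was under 0.05 for 1 array gene and for 23 of all 389, of which 2 passed after adjustment. That error is taken from the same 2 libraries and includes the difference under test.

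**Figure D5:**
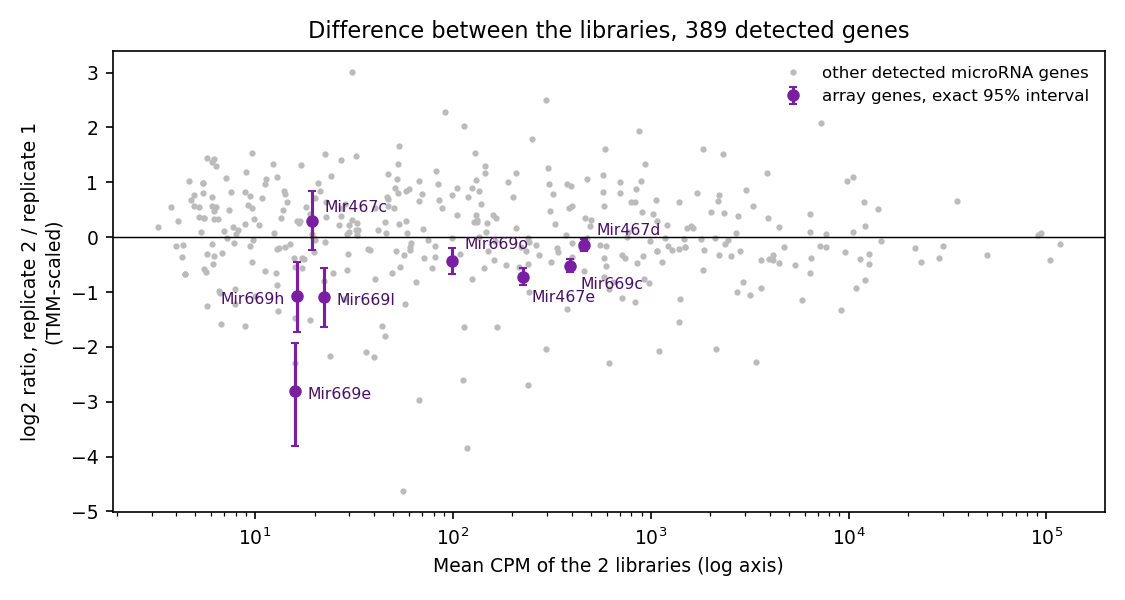
Log2 ratio of replicate 2 over replicate 1 on TMM-scaled counts against mean CPM (log axis), for the 8 array genes (purple, exact 95% intervals) and the other 381 detected genes (grey). All array genes but Mir467c lie below 0, Mir669e furthest at -2.80.

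Other measures moved between the libraries too. Unmapped reads were 16.6% in replicate 1 and 22.6% in replicate 2. The detected array genes had a median hairpin GC content of 39.3%, against 52.1% for all detected genes. Their part in the difference was not tested. In these bulk tissue libraries, fewer cells of a type and less RNA per cell cannot be told apart.

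Cell type marker lists were summed per library, and the sums are over lists of unequal length. Of 14 neuronal genes 10 were detected, with 33124 and 34039 CPM in all, and 2 of the copies of miR-124 were at 0. Mir124a-1 had 5 reads in each library. Reads that fit several copies may not have been assigned, so these low counts set no limit on the level of miR-124. The same may apply to the Mir9 genes, and the neuronal sum covers assigned reads only. Members moved in both directions, with Mir132 at 13707.6 and 11794.5 CPM and Mir137 at 5986 and 6832. Oligodendrocyte genes (2 of 3 detected) summed to 5027 and 6671 CPM, and microglia and leukocyte genes (4 of 4) to 3848 and 3250. The detected oligodendrocyte genes went opposite ways, with Mir338 at 2050 and 4000 CPM and Mir219a-2 at 2977 and 2662. The endothelial gene had 7871 and 7464 CPM. The choroid plexus and ependyma list (5 of 5) summed to 3416 CPM in replicate 1 and 1638 in replicate 2. Within it Mir34c had 2045 and 750 CPM and Mir204 had 1231 and 739, while Mir449a had 31.9 and 49.3 and Mir211 had 73.3 and 76.2. The red blood cell list (3 of 3) had 47.6 and 59.9 CPM, and the striated muscle and liver list (3 of 7, with 2 at 0) had 64.9 and 57.4. The embryonic stem cell and trophoblast list had 4 of 12 detected and 7 at 0, with 229 and 544 CPM. The 4 detected genes were Mir302a, Mir302b, Mir302c and Mir302d. The 9 measured genes of the miR-290 to miR-295 cluster, all with private windows, had 1 read in all, at Mir294. The part of these cell types in the array's reads was not tested.

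Hairpins of the same intron just outside the interval added little. The 5 genes before it, Gm22072, Gm22677, Mir466m, Mir466f-1 and Mir669f, had 6 reads in both libraries together, 5 of them at Mir669f (2 and 3 reads), which ends 146 bases before Mir669e. Beside Mir669f, Mir669e with 95 and 12 reads stood higher in both libraries.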

How the data were processed

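Small RNA was sequenced in 2 libraries of 1 group. The deposited tables hold raw counts of reads for each microRNA gene, on its strand, on the opposite strand and on either (the strands were told from the values, as the tables have no header), against mm10 and GENCODE M21 per the text notes deposited with them. The aligner, counter, trimming and treatment of reads from repeated hairpins: not given in the sources used here. The 4 rows that name no gene (64.8% and 67.0% of reads) were left out. The column on the gene's strand was used. All 2202 IDs were found in M21, which gave symbols, coordinates and hairpin sequences. CAST sequence was not used, so identities, copies, motifs and private windows describe the reference.

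CPM used assigned reads as library size (3421977 and 2820468). Intervals are exact Clopper-Pearson (95%). Libraries were compared with an exact binomial test per gene (scipy 1.17.1) on TMM sizes from edgeR 4.0.16 (R 4.3.3), with Benjamini-Hochberg adjustment over all 389 detected genes (10 reads or more in each library). The single group leaves no contrast for a quasi-likelihood test. DESeq2 1.42.0 size factors and the edgeR exact test were alternatives. Identity came from Biopython 1.88 global alignments. The binomial test was also run on simulated counts. These held counting error only, so that run says nothing of its behaviour under spread between libraries.

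Named genes were all detected array genes, then the highest gene of each family, then related genes elsewhere; neighbours, genes with many private windows and 0 reads, and the blocks were chosen after values were seen. Members and lists were chosen with earlier results of these data known.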

Additional observations from a re-analysis of the deposited data

How the results depend on the processing

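With at least 50 reads in both libraries 5 array genes were detected in place of 8, and with all reads as the denominator the array's share was 0.0428% in place of 0.125%. Both follow from how those settings are built, as do the first 3 and the first 10 genes, which took 86.1% and 99.9% of array reads where the first 5 took 95.7%. Of the genes called between the libraries, 4 of 4 tested remained with at least 100 reads in both, and 0 of 8 by the edgeR exact test (2 of all 389). The median log2 ratio of the array was -0.47 with at least 50 reads (5 genes) and -0.52 without Mir669e, a setting chosen after the data were seen, in place of -0.62. The other alternatives, which included windows of 16, 18 and 22 bases, genes of either strand, genes overlapping the interval and each library alone, moved the count of detected genes, the called count and the median log2 ratio by less than 1.5 times and the array's share by less than 1 SD. With windows of each of those lengths 60 genes had private sequence and the genes without it had 0 reads. A private window stays private when lengthened, so these were the same 60 genes and the 0 reads only repeat the main result. Leaving out each library in turn gave shares of 0.111% to 0.140% and 8 detected genes either way. Each of 2 values always lies within 1 SD of their mean, so for the share that step could not come out otherwise. Of the detected genes' log2 ratios none changed direction under the settings run. No paired analysis was possible because there was 1 group. Depth sets a limit only for reads that could be assigned to a gene. Some of the 45 array genes with private sequence and no read are mostly shared with others, such as Gm25673 with 2 private windows of 108, so their count of 0 sets no limit on their level, nor does that of the 54 without private sequence.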
